A study of Mus musculus with 6 samples.

Results

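Hepcidin and its partners set how much iron the liver takes up, stores and lets back into the blood. The 10 genes described here were taken by symbol from the 22173 listed in the expression table, and all 10 passed the filter on low values. They are the hepcidin genes Hamp and Hamp2, the iron-sensing genes Tfr2 and Hfe, the uptake receptor Tfrc, the iron carrier Trf, the exporter Slc40a1, the ferritin genes Fth1 and Ftl1, and the ferritin receptor Ncoa4.

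Liver RNA was measured in wild-type mice, 3 given DDK and 3 given vehicle, all of which began the HFHC diet at 6 weeks of age. They ate it for 16 weeks, and dosing with DDK or vehicle covered the last 4 of these. The question was how DDK, which the series title calls a limonoid, acts in metabolic dysfunction-associated steatohepatitis, a liver disease that joins fat storage with inflammation. Every animal was on the diet, so neither group shows a liver without it. The labels name no dose, sex, strain or batch, and p-values measure the spread between these 6 livers.

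Hepcidin is a peptide hormone that hepatocytes secrete when iron is plentiful or when inflammation is present. It binds ferroportin, the product of Slc40a1, which is the exporter of iron from macrophages, enterocytes and hepatocytes, and causes its removal. Hepatocytes read iron through transferrin, TFR2 and HFE and through BMP and SMAD signalling, and they read inflammation through IL-6 and STAT3. Inside the cell, iron regulatory proteins bind a short hairpin, the iron-responsive element, and so block translation of ferritin and ferroportin messages and protect the message of Tfrc from decay.

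Sequences of 2 kinds bear on these genes. The first is the promoter pair of Hamp and Hamp2, shown because both genes stood higher in DDK livers and the windows can be compared base by base. The Hamp promoter lies at chr7:30943980-30944279 and that of Hamp2 at chr7:30924132-30924431, both on the minus strand of GRCm38.p6, from RefSeq. Each window runs from 250 bases before to 50 after the annotated start. Capitals mark GGCGCC, the core of the BMP-responsive element, and TTCTTGGAA, the STAT site known from the human hepcidin promoter.
Hamp: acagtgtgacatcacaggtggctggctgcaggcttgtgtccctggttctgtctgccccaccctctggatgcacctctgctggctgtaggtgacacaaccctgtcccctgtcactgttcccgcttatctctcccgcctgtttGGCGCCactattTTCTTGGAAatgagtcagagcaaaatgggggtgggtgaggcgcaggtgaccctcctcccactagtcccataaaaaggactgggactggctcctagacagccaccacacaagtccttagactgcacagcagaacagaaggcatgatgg
Hamp2: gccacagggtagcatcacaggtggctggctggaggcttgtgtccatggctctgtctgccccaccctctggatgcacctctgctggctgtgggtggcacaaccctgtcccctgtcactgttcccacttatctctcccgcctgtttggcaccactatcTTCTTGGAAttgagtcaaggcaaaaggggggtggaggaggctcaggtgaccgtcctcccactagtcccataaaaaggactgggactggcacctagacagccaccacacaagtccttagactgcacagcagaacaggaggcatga

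The 2 promoters were identical at 92.9% of 297 aligned bases. Searched on both strands, TTCTTGGAA was in both windows, at position -97 of Hamp and -94 of Hamp2 relative to the start, and in 0.421% of the 32544 promoter windows in the reference table. GGCGCC was in the Hamp window at position -109 and not in the Hamp2 window, and 11.9% of all windows held it. A match is a description of the letters and not a measured binding site.

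The second kind is the iron-responsive element, shown because it marks which of these messages the iron regulatory proteins are known to bind. Messenger RNAs were searched for a CAGTGN loop, where N is A, C or T, shown in capitals. It had to have a stem of 5 paired bases, an unpaired C below that, and at least 4 of 5 pairs in the lower stem. Fth1, Ftl1 and Slc40a1 each carried 1 such element in the 5′ untranslated region, and Tfrc carried 4 in the 3′ untranslated region. The elements lie at chr19:9982733-9982759 (plus strand) in Fth1, chr7:45459780-45459806 (minus strand) in Ftl1 and chr1:45925466-45925492 (minus strand) in Slc40a1. The first and the last of Tfrc lie at chr16:32631220-32631246 and chr16:32631711-32631737 (plus strand), all in GENCODE M21 on GRCm38.
Fth1: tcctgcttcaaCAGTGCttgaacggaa
Ftl1: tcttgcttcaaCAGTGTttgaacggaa
Slc40a1: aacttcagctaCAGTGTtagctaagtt
Tfrc element 1: attatcggaagCAGTGCcttccataat
Tfrc element 2: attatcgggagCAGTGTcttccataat
Tfrc element 3: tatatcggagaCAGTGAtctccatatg
Tfrc element 4: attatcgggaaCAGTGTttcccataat

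Of 10458 tested genes with an annotated coding transcript, 10 (0.0956%) had a match in an untranslated region, and 4 of those 10 are the genes shown. Hamp, Hamp2, Tfr2, Hfe, Ncoa4 and Trf had none. The search asks for a strict form of the hairpin, so elements of other shapes are not counted.

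DDK livers had higher levels of both hepcidin genes, a much lower level of Ncoa4, and moderately lower levels of Slc40a1, Trf and Hfe than vehicle livers. Tfr2, Tfrc, Fth1 and Ftl1 did not pass the test. Values are FPKM, fragments scaled to gene length and to the fragment total of the library. The test was limma on log2(FPKM + 1) over 10681 genes with Benjamini-Hochberg adjustment, and an adjusted p under 0.05 counted as a change. Of the 10 genes 2 rose, where 10.2% of all tested genes rose, and 4 fell, where 30.3% of all tested genes fell (40.5% changed in either direction). The share of the 10 that fell is therefore near the background. The groups did not overlap for 7 of the 10 genes, 3 with DDK above and 4 with DDK below, against 53.3% of all tested genes (14.1% with DDK above and 39.2% below).

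**Figure D1:**
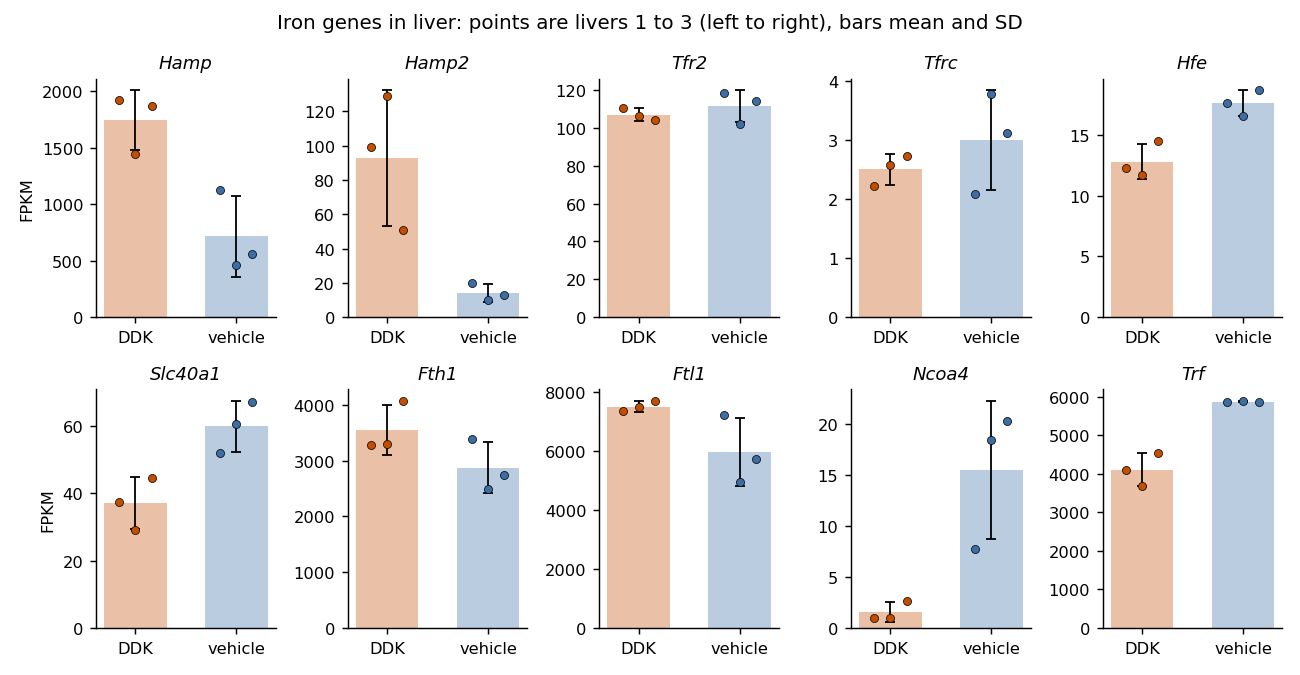
FPKM of the 10 iron genes in each liver, DDK on the left and vehicle on the right of each panel, with bars for the mean and error bars for the SD over 3 livers. Hamp and Hamp2 stand higher in every DDK liver than in any vehicle liver, and Ncoa4, Slc40a1, Trf and Hfe stand lower.

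Depth behind the values was 26576291 to 30237490 fragments in DDK libraries and 33963898 to 36105315 in vehicle libraries. On the first principal component, which held 75% of the variance, DDK livers lay at -36.4 to -23.6, and vehicle replicate 1, at 14.1, stood nearer to them than vehicle replicates 2 and 3, at 36.2 and 40.01. The median log2 fold change over all tested genes was -0.23 with the values scaled as deposited. Short genes stood higher in DDK livers as a class, with a median of 0.70 over the 174 tested genes under 600 bp, 63.8% of which rose. The class of 600 to 1200 bp had a median of 0.28, and that of 2500 to 5000 bp a median of -0.29. Hepatocyte markers were present at high levels in every library. Of all tested genes 10.2% rose and 30.3% fell. Of the 13 hepatocyte markers measured 6 rose (Alb, Apoa2, Ttr, Serpina1c, Arg1 and Hal), 1 fell (Tat) and 6 did not pass. Under quantile normalization 3 rose and 4 fell. That method gives genes of equal rank the same value in every library. Alb, the albumin gene, had a log2 fold change of 0.88 with the values as deposited. Its 0.00 under quantile normalization was fixed by its rank and is no test of its change.

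Hamp, which encodes the iron-regulating hepcidin of the mouse (chromosome 7, 30942368 to 30944032, minus strand), was one of the most abundant messages of the liver. It stood at an FPKM of 1924, 1443 and 1868 in DDK livers 1 to 3, against 1127, 459 and 557 in vehicle livers 1 to 3. All 3 DDK livers lay above all 3 vehicle livers, and vehicle liver 1 stood at about the middle between the others and the DDK livers. The means were 1745 ± 263 in DDK and 714 ± 360 in vehicle (SD, n = 3 each), a log2 fold change of 1.39 ± 0.29 (SE, limma adjusted p = 0.00628), which was the 61st largest increase among the 10681 genes. Without vehicle liver 1 the change was 1.77 (limma adjusted p = 0.000456).

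The Hamp message is short, at 407 bp, and belongs to the class of genes that stood higher in general. After a correction for gene length its log2 fold change was 0.56 and no longer passed (limma adjusted p = 0.0913). Under median-ratio scaling, quantile normalization and rescaling to TPM it was 1.68, 0.97 and 1.15 and passed each time. The call of Hamp held under the other 18 of the 19 alternatives that kept both hepcidin genes apart.

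Hamp2 is a neighbouring copy of Hamp (chromosome 7, 30922372 to 30924681, minus strand), and in transgenic mice its overexpression did not lower iron as that of Hamp did. It stood at an FPKM of 99.2, 129 and 50.6 in DDK livers 1 to 3, against 19.8, 9.84 and 13.0 in vehicle livers 1 to 3. The lowest DDK liver, liver 3, still had more than the highest vehicle liver, and the DDK livers were spread widely. The means were 92.8 ± 39.5 in DDK and 14.2 ± 5.07 in vehicle (SD, n = 3 each), a log2 fold change of 2.58 ± 0.33 (SE, limma adjusted p = 0.000938). It passed under all 19 alternatives run for it, with log2 fold changes of 1.80 after the length correction to 2.96.

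The spliced messages of the 2 copies (Hamp-201 and Hamp2-203) were identical at 94.6% of 410 aligned bases, with 22 differences and no identical run longer than 87 bases. How fragments that match both were divided is not given in the sources used here. Hamp2 took 4.91%, 8.19% and 2.64% of the summed FPKM of both copies in DDK livers 1 to 3, against 1.72%, 2.10% and 2.28% in vehicle livers 1 to 3. On the log2 scale the ratio of Hamp2 to Hamp was -4.31 ± 0.85 in DDK and -5.50 ± 0.24 in vehicle livers (SD, n = 3 each). The difference of 1.19 had an exact two-sided permutation p of 0.1, the smallest that 3 against 3 allows, and DDK liver 3 lay just above the vehicle range. Summed into 1 gene, the hepcidin copies stood at an FPKM of 1838 ± 236 in DDK and 729 ± 365 in vehicle livers (SD, n = 3 each), with a log2 fold change of 1.44 (limma adjusted p = 0.00516). Both copies overlap Gm44662, a long noncoding RNA annotated on the other strand, and the library kit does not mark strand.

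**Figure D2:**
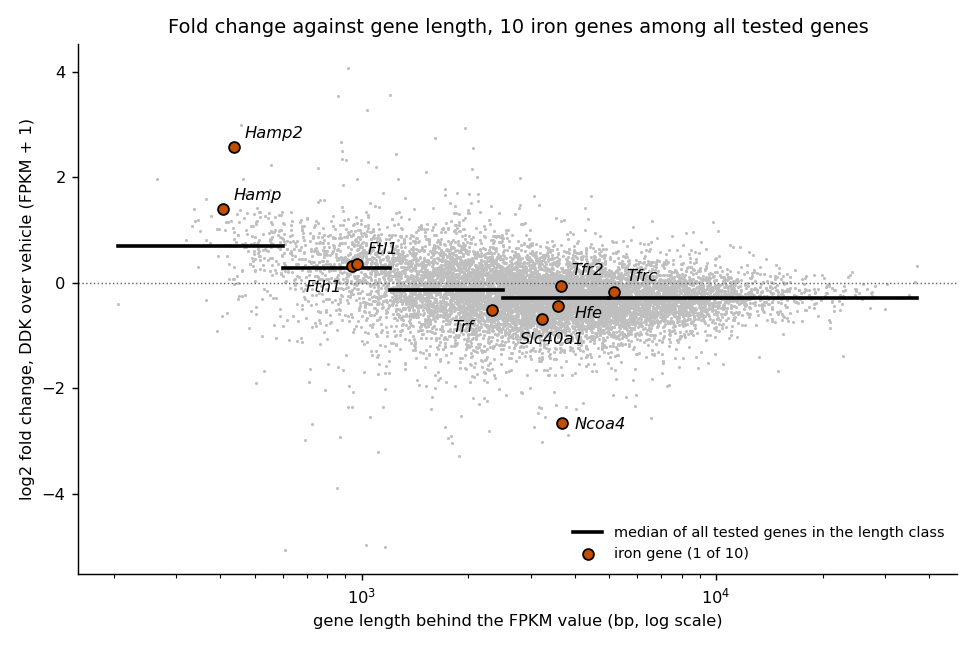
Log2 fold change of DDK over vehicle (vertical axis) against the gene length behind the FPKM value (horizontal log axis, bp) for all tested genes in grey, with the 10 iron genes in orange and the median of each length class as a black line. Hamp and Hamp2 lie at the short end above the class median of 0.70, Fth1 and Ftl1 lie close to their class median of 0.28, and Ncoa4 lies far below its class median of -0.29.

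Of the iron sensors of the hepatocyte, Hfe was lower in DDK livers and Tfr2 did not pass. Tfr2, which binds iron-loaded transferrin and passes the signal to hepcidin (chromosome 5, 137569840 to 137587481), stood at an FPKM of 111, 106 and 104 in DDK livers 1 to 3, against 118, 102 and 114 in vehicle livers 1 to 3. The groups overlapped. The log2 fold change was -0.06, with a 95% confidence interval of -0.33 to 0.21 (limma adjusted p = 0.717), and it stood at 0.24 under median-ratio scaling and after the length correction.

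Hfe, the MHC class I-like partner of TFR2 whose loss lowers hepcidin in mice and humans (chromosome 13, 23702034 to 23710854), stood at an FPKM of 12.3, 11.7 and 14.5 in DDK livers 1 to 3, against 17.6, 16.6 and 18.7 in vehicle livers 1 to 3. Every DDK liver lay below every vehicle liver. Hfe fell by 0.44 on the log2 scale (limma adjusted p = 0.0265), and relative to the median of all genes by less. The call was lost after length correction (-0.14, limma adjusted p = 0.385), under quantile normalization (-0.21, limma adjusted p = 0.218) and with median-ratio factors (-0.16, limma adjusted p = 0.366). It was also lost without DDK liver 1 (limma adjusted p = 0.0954), DDK liver 2 (limma adjusted p = 0.111) or vehicle liver 3 (limma adjusted p = 0.0952).

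Of the genes that bring iron to the cell, the carrier fell and the uptake receptor did not pass. Trf, transferrin, the plasma iron carrier that hepatocytes secrete (chromosome 9, 103204001 to 103230444), stood at an FPKM of 4092, 3683 and 4542 in DDK livers 1 to 3, against 5847, 5889 and 5872 in vehicle livers 1 to 3. The vehicle livers were nearly equal, and all DDK livers lay below them. The gene overlaps Gm20425, annotated as protein coding on the same strand, and how fragments shared with it were counted was not stated. Trf fell by 0.52 ± 0.16 on the log2 scale (SE, limma adjusted p = 0.0298). That call was lost under median-ratio scaling (-0.23, limma adjusted p = 0.427), with every gene above 0 tested (limma adjusted p = 0.113), and without DDK liver 1 (limma adjusted p = 0.0952), DDK liver 2 (limma adjusted p = 0.155), vehicle liver 2 (limma adjusted p = 0.0831) or vehicle liver 3 (limma adjusted p = 0.0817).

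Tfrc, the transferrin receptor of most cells (chromosome 16, 32608920 to 32632794), whose 4 elements are printed above, was scarce. It stood at an FPKM of 2.22, 2.57 and 2.73 in DDK livers 1 to 3, against 2.09, 3.77 and 3.12 in vehicle livers 1 to 3. The groups overlapped, and vehicle liver 1 was the lowest of all 6. The log2 fold change was -0.17, with a 95% confidence interval of -0.57 to 0.23 (limma adjusted p = 0.463). Its sign turned after length correction (0.15), under quantile normalization (0.12) and with median-ratio factors (0.05), with no call.

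Slc40a1, the only known cellular iron exporter and the target of hepcidin (chromosome 1, 45908068 to 45926523), stood at an FPKM of 37.5, 29.2 and 44.5 in DDK livers 1 to 3, against 51.9, 60.5 and 67.1 in vehicle livers 1 to 3. The groups did not overlap. Slc40a1 fell by 0.69 ± 0.17 on the log2 scale (SE, limma adjusted p = 0.0116) with means of 37.1 ± 7.64 in DDK and 59.8 ± 7.61 in vehicle livers (SD, n = 3 each). The call was lost under median-ratio scaling (-0.40, limma adjusted p = 0.0693), after length correction (-0.41, limma adjusted p = 0.0533), and without DDK liver 2 (limma adjusted p = 0.0523) or vehicle liver 3 (limma adjusted p = 0.0535).

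In the liver Slc40a1 is strong in Kupffer cells, the resident macrophages. Of 14 macrophage and Kupffer cell markers measured, 8 fell and 0 rose, where 30.3% of all tested genes fell. The markers had a median log2 fold change of -1.23 against -0.23 for all genes. Their FPKM added up to 201.3 to 507.3 in DDK livers and 666 to 1086 in vehicle livers. Those that fell were Adgre1, Cd5l, Csf1r, C1qb, C1qc, Cd68, Lyz2 and Mpeg1. The Kupffer cell markers Clec4f (-0.35, limma adjusted p = 0.363) and Timd4 (-0.01, limma adjusted p = 0.98) did not pass, and both were named after their values were seen. Vsig4, Marco, Folr2 and C1qa did not pass either (limma adjusted p = 0.0992 to 0.633). Cd163, a macrophage receptor counted below with the transport genes, rose (0.65, limma adjusted p = 0.0251). The part of macrophages in the level of Slc40a1 was not tested, and in bulk tissue fewer cells of a type and less RNA per cell cannot be told apart.

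The ferritin genes, which encode the heavy and light chains of the iron storage shell, were among the most abundant of all. Fth1, the heavy chain with the ferroxidase site (chromosome 19, 9980598 to 9985098), stood at an FPKM of 3278, 3309 and 4077 in DDK livers 1 to 3, against 3386, 2499 and 2741 in vehicle livers 1 to 3. The groups overlapped through vehicle liver 1. The log2 fold change was 0.31, with a 95% confidence interval of -0.09 to 0.71 (limma adjusted p = 0.185).

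Ftl1, the light chain that aids mineral formation (chromosome 7, 45457944 to 45459884), stood at an FPKM of 7342, 7478 and 7701 in DDK livers 1 to 3, against 7232, 4960 and 5733 in vehicle livers 1 to 3. The DDK livers lay close together, and vehicle liver 1 lay just below them. The log2 fold change was 0.35, with a 95% confidence interval of -0.08 to 0.77 (limma adjusted p = 0.162).

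Without vehicle liver 1 both ferritin genes passed, Fth1 at 0.43 (limma adjusted p = 0.0399) and Ftl1 at 0.49 (limma adjusted p = 0.0184). Ftl1 also passed under library weights (0.44, limma adjusted p = 0.0214). After length correction Fth1 and Ftl1 stood at 0.05 and 0.10, and neither passed. The log2 ratio of Ftl1 to Fth1 was 1.09 ± 0.15 in DDK and 1.05 ± 0.06 in vehicle livers (SD, n = 3 each), with a difference of 0.04 (exact two-sided permutation p = 0.7). Ferritin genes have many processed pseudogenes, and how fragments shared with them were counted was not stated.

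Ncoa4, the receptor that delivers ferritin to the lysosome so that its iron is released (chromosome 14, 32159865 to 32179855), showed the largest log2 change of the 10 with the values as deposited (that of Hamp2 was larger in size under median-ratio scaling, under quantile normalization and without vehicle liver 3). It stood at an FPKM of 0.986, 0.954 and 2.67 in DDK livers 1 to 3, against 7.73, 18.5 and 20.3 in vehicle livers 1 to 3. The lowest vehicle liver, liver 1, still had more than the highest DDK liver. The DDK values rest on 104, 93 and 296 fragments and the vehicle values on 1023, 2314 and 2525, so counting error is small beside the spread between livers. The means were 1.54 ± 0.981 in DDK and 15.5 ± 6.78 in vehicle livers (SD, n = 3 each), 0.0992 of the vehicle level.

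Ncoa4 fell by 2.66 ± 0.35 on the log2 scale (SE, limma adjusted p = 0.00103), the 18th largest decrease among the 10681 genes. It passed under all 19 alternatives, with log2 fold changes of -3.36 to -2.36, the smallest being that after length correction. The differences in the ferritin messages did not pass.

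Ranked by mean FPKM, which is a level per gene length, the order in DDK livers was Ftl1, Trf, Fth1, Hamp, Tfr2, Hamp2, Slc40a1, Hfe, Tfrc and Ncoa4. In vehicle livers it was Ftl1, Trf, Fth1, Hamp, Tfr2, Slc40a1, Hfe, Ncoa4, Hamp2 and Tfrc. In vehicle livers Ftl1 (5975 ± 1155) and Trf (5869 ± 21.3) lay within their spread, as did Ncoa4 (15.5 ± 6.78), Hfe (17.6 ± 1.05) and Hamp2 (14.2 ± 5.07, SD, n = 3 each). In DDK livers Trf (4106 ± 430) and Fth1 (3555 ± 453) lay within about their spread, as did Tfr2 (107 ± 3.39) and Hamp2 (92.8 ± 39.5), and Tfrc (2.51 ± 0.264) and Ncoa4 (1.54 ± 0.981, SD, n = 3 each). Compared within each liver, Trf stood above Fth1 and Tfrc above Ncoa4 in all 3 DDK livers, the latter only just in liver 3 (2.73 against 2.67).

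Among genes that carry or restrain the BMP and SMAD signal to hepcidin, calls were found in both directions, at shares near those of all tested genes (10.2% higher and 30.3% lower). Of 22 genes in this list 19 were tested, 2 rose (Id1 and Bmp4) and 5 fell (Tmprss6, Bmpr1a, Acvr2a, Smad5 and Smad6), with a median of -0.31 against -0.23 for all genes. The number that fell was 10 under TPM and under library weights, 9 without vehicle liver 1, and 3 under median-ratio scaling, quantile normalization, length correction and without DDK liver 2. Bmpr1a, a BMP receptor, lost its call under 7 of 19 alternatives. These were length correction, quantile normalization, median-ratio scaling and the fits without DDK liver 1, DDK liver 2, vehicle liver 2 or vehicle liver 3. Acvr2a, an activin and BMP receptor, lost its call under 5 of 19. Those were length correction, quantile normalization, the test of every gene above 0, and the fits without DDK liver 1 or DDK liver 2. Id1, a direct target of BMP and SMAD signalling, stood at an FPKM of 30.7, 21.2 and 24.5 in DDK livers 1 to 3, against 17.3, 8.99 and 11.6 in vehicle livers 1 to 3. It rose by 0.99 ± 0.22 on the log2 scale (SE, limma adjusted p = 0.00784) and passed under all 19 alternatives. Id3 (-0.02, limma adjusted p = 0.95) and Atoh8 (0.19, limma adjusted p = 0.61), of the same list, did not pass, and their groups overlapped. Bmp4, a BMP ligand, stood barely past the threshold (0.40, limma adjusted p = 0.0498) and lost its call under 13 of 19 alternatives. Among these were the fit with replicate number as a block (limma adjusted p = 0.0746), voom (limma adjusted p = 0.0941) and every fit without 1 library except that without DDK liver 2.

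The inhibitory Smad6, another target of the same signal, moved the other way from Id1. Smad6 stood at an FPKM of 2.03, 1.37 and 2.01 in DDK livers 1 to 3, against 3.42, 3.33 and 4.99 in vehicle livers 1 to 3 (log2 fold change -0.80, limma adjusted p = 0.00717). Smad7, which also restrains hepcidin, stood at 1.15 ± 0.341 in DDK and 1.86 ± 0.262 in vehicle livers (SD, n = 3 each, limma adjusted p = 0.0513). Smad7 passed without DDK liver 1 (limma adjusted p = 0.0372) or vehicle liver 1 (limma adjusted p = 0.0265). It also passed under library weights (limma adjusted p = 0.0248) and TPM (limma adjusted p = 0.02). Smad5, one of the SMADs that BMP receptors phosphorylate, fell by 0.94 (limma adjusted p = 0.00369).

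Tmprss6, the hepatocyte protease that cuts hemojuvelin and so lowers hepcidin, stood at an FPKM of 113, 112 and 124 in DDK livers 1 to 3, against 156, 176 and 195 in vehicle livers 1 to 3. It fell by 0.58 ± 0.13 on the log2 scale (SE, limma adjusted p = 0.00767), a call that was lost under median-ratio scaling (-0.29, limma adjusted p = 0.118). Hemojuvelin itself, Hjv, the BMP co-receptor, stood at 49.9 ± 3.87 in DDK and 50.5 ± 4.13 in vehicle livers (SD, n = 3 each; limma adjusted p = 0.934). Bmp6, the main BMP ligand of iron sensing, which liver endothelial cells make, stood at 0.953 ± 0.0751 in DDK and 1.30 ± 0.357 in vehicle livers (SD, n = 3 each; limma adjusted p = 0.222). Of 10 liver endothelial markers 5 fell (Pecam1, Cdh5, Lyve1, Plvap and Oit3) and 0 rose, where 30.3% of all tested genes fell. Plvap stood at -1.32. Stab1 (0.13), Kdr (-0.02), Clec4g (-0.35), Tek (-0.30) and Stab2 (-0.435) did not pass (limma adjusted p = 0.0666 to 0.925). The summed FPKM of the 10 markers was 48.5 to 64.3 in DDK and 76.3 to 114 in vehicle livers. The part of endothelial cells in the level of Bmp6 was not tested.

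Genes of the inflammatory arm were lower or did not pass the test. Of 12 genes of the IL-6 and STAT3 route to hepcidin 11 were tested, 6 fell and 0 rose, with a median of -0.46 against -0.23 for all genes, of which 30.3% fell. The number that fell was 4 under length correction and quantile normalization, and 9 under TPM, library weights and without vehicle liver 1. Il6ra, the ligand-binding IL-6 receptor, stood at an FPKM of 0.484, 0.635 and 0.568 in DDK livers 1 to 3, against 1.38, 3.46 and 3.93 in vehicle livers 1 to 3. It fell by 1.26 ± 0.24 on the log2 scale (SE, limma adjusted p = 0.00424), and Il6st, the shared signalling chain, fell by 0.92 (limma adjusted p = 0.0068).

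Stat3, the transcription factor of this route, fell by 0.46 (limma adjusted p = 0.0166), but not after length correction (-0.15, limma adjusted p = 0.325), under quantile normalization (-0.23, limma adjusted p = 0.142) or with median-ratio factors (-0.18, limma adjusted p = 0.259). Nor did it pass without DDK liver 1 (limma adjusted p = 0.0568), DDK liver 2 (limma adjusted p = 0.0778) or vehicle liver 3 (limma adjusted p = 0.0678). Cebpa, a hepatocyte factor known to act on the hepcidin promoter, fell by 0.73 (limma adjusted p = 0.0034). Creb3l3, a stress-activated hepatocyte factor, stood at 123 ± 1.79 in DDK and 147 ± 24.8 in vehicle livers (SD, n = 3 each; limma adjusted p = 0.194), and was lower without vehicle liver 1 (-0.38, limma adjusted p = 0.0237). It was also lower under library weights (limma adjusted p = 0.0241) and TPM (limma adjusted p = 0.0323). Il6 itself was listed at or near 0 in every library and was not tested.

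Socs3, a direct STAT3 target that restrains the signal, stood at an FPKM of 4.79, 3.95 and 3.09 in DDK livers 1 to 3, against 4.17, 1.5 and 1.92 in vehicle livers 1 to 3. The groups overlapped through vehicle liver 1. Its log2 fold change was 0.55, opposite in sign to the genes of the list that fell, and did not pass (limma adjusted p = 0.113). It passed without vehicle liver 1 (0.86, limma adjusted p = 0.005), under library weights (0.84, limma adjusted p = 0.00345) and with replicate number as a block (limma adjusted p = 0.0459).

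**Figure D3:**
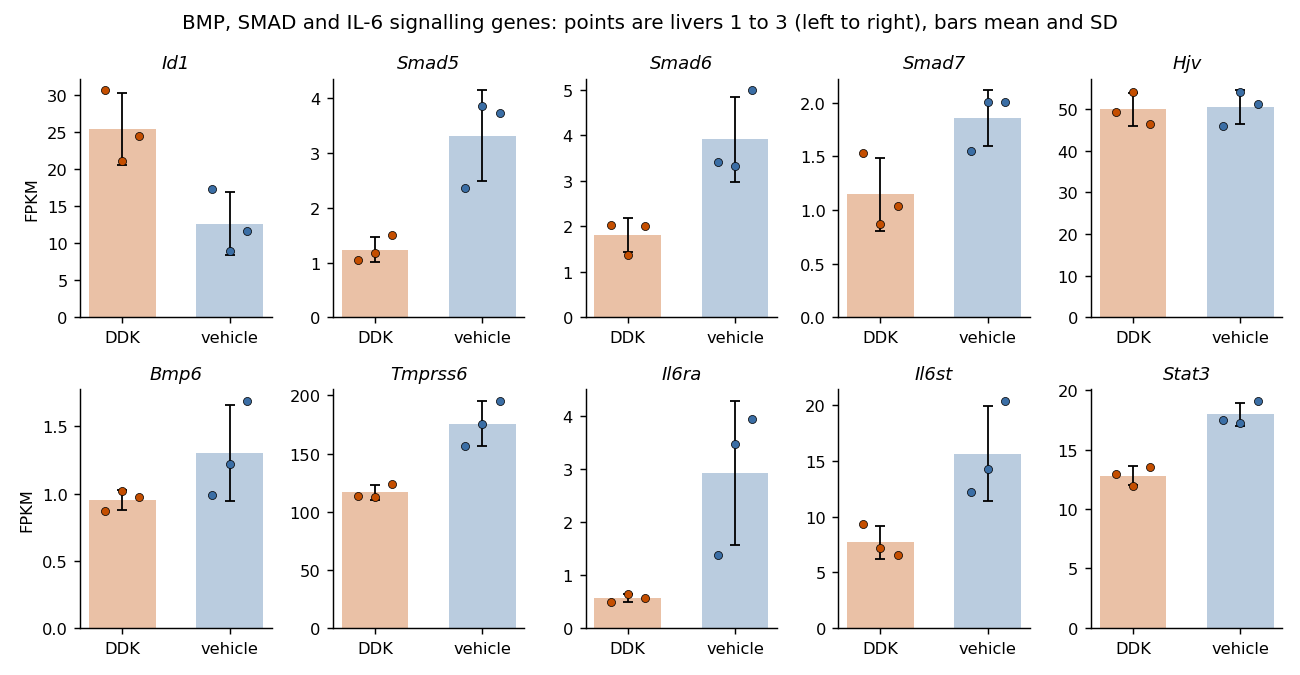
FPKM of 10 BMP, SMAD and IL-6 signalling genes in each liver, DDK on the left and vehicle on the right, with bars for the mean and error bars for the SD over 3 livers. Id1 stands higher in every DDK liver, while Smad5, Smad6, Tmprss6, Il6ra, Il6st and Stat3 stand lower, and Hjv overlaps.

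Most other genes of iron and heme iron transport that passed were lower. Of 27 listed genes 20 were tested, 13 fell and 1 rose, with a median of -0.52 against -0.23 for all genes, of which 30.3% fell. Under median-ratio scaling 6 fell and 2 rose, and 8 fell without DDK liver 1 or DDK liver 2. Hmox1, heme oxygenase, which frees iron from heme, stood at an FPKM of 7.502, 4.92 and 3.97 in DDK livers 1 to 3, against 25.7, 22.2 and 35.3 in vehicle livers 1 to 3. It fell by 2.17 ± 0.22 on the log2 scale (SE, limma adjusted p = 0.000508). Hmox1 is also strong in macrophages, whose summed marker levels are given above, and their part in this result was not tested.

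Lcn2, which binds bacterial iron carriers, fell by 3.88. Steap4, a ferrireductase induced by inflammation, fell by 2.47. Hpx, the plasma heme carrier hemopexin, stood at 2099 ± 168 in DDK and 4139 ± 289 in vehicle livers (SD, n = 3 each), and fell by 0.98 (limma adjusted p = 0.00197). Slc11a2, the iron transporter DMT1, fell by 0.86 (limma adjusted p = 0.00316), and Steap3, the ferrireductase of the endosome, fell by 0.997 (limma adjusted p = 0.0112). With every gene above 0 tested, Steap3 did not pass (limma adjusted p = 0.0515).

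Slc39a14, the transporter of iron not bound to transferrin, fell by 0.60 (limma adjusted p = 0.00778), and its call was lost after length correction (limma adjusted p = 0.0647), under quantile normalization (limma adjusted p = 0.0539) and with median-ratio factors (limma adjusted p = 0.0661). Cp, the plasma ferroxidase ceruloplasmin, fell by 0.50 (limma adjusted p = 0.0301), and its call was lost under 7 alternatives, among them those without DDK liver 1 (limma adjusted p = 0.117), DDK liver 2 (limma adjusted p = 0.114), vehicle liver 2 (limma adjusted p = 0.103) or vehicle liver 3 (limma adjusted p = 0.0597). The gene that rose was Cd163, the macrophage receptor for hemoglobin bound to haptoglobin, at 1.83 ± 0.604 in DDK and 0.788 ± 0.316 in vehicle livers (SD, n = 3 each; log2 fold change 0.65, limma adjusted p = 0.0251). Cd163 lost its call without DDK liver 1 (limma adjusted p = 0.0863), DDK liver 2 (limma adjusted p = 0.0915) or vehicle liver 1 (limma adjusted p = 0.0574), under TPM (limma adjusted p = 0.0541) and with every gene above 0 tested (limma adjusted p = 0.0803).

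Of 6 genes that bind the hairpins or control the binding proteins, 2 fell (Aco1 and Herc2) and 0 rose, a share near the 30.3% of all genes that fell, with a median of -0.26 against -0.23. Under median-ratio scaling 0 fell, and without vehicle liver 1 5 fell. Herc2, a ubiquitin ligase, fell by 0.42 (limma adjusted p = 0.0475) and lost its call under 9 of 19 alternatives, those without DDK liver 1, DDK liver 2, vehicle liver 2 or vehicle liver 3 among them (limma adjusted p = 0.116 to 0.166). Aco1, which encodes iron regulatory protein 1, stood at an FPKM of 37.2, 36.6 and 40.8 in DDK livers 1 to 3, against 52.5, 63.2 and 63.3 in vehicle livers 1 to 3, and fell by 0.63 (limma adjusted p = 0.00543). The call was lost under median-ratio scaling (-0.34, limma adjusted p = 0.0592). Ireb2, iron regulatory protein 2, stood at 7.10 ± 0.339 in DDK and 9.25 ± 2.57 in vehicle livers (SD, n = 3 each; limma adjusted p = 0.218). Without vehicle liver 1 its log2 fold change was -0.53 and passed (limma adjusted p = 0.00694). It also passed under library weights (-0.45, limma adjusted p = 0.017). Fbxl5, which removes IRP2 when iron is high, did not pass (-0.19, limma adjusted p = 0.335), but did without vehicle liver 1 (-0.33, limma adjusted p = 0.0424).

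Among 6 further genes whose messages are known to hold an iron-responsive element, 5 were tested, 4 fell and 0 rose, with a median of -0.66 against -0.23 for all genes, of which 30.3% fell. Under median-ratio scaling and without DDK liver 2, 2 of them fell. Epas1, the hypoxia factor HIF-2 alpha, stood at an FPKM of 1.31, 1.46 and 1.84 in DDK livers 1 to 3, against 7.55, 19.3 and 21.9 in vehicle livers 1 to 3. It fell by 2.65 ± 0.32 on the log2 scale (SE, limma adjusted p = 0.000747), a size close to that of Ncoa4, and passed under all 19 alternatives. Alas2, the erythroid heme synthesis enzyme, and Hao1, a liver oxidase, fell by 0.51 and 0.66 (limma adjusted p = 0.0201 and 0.0134), and both lost their calls under median-ratio scaling (limma adjusted p = 0.259 and 0.124). Hao1 also lost its call without DDK liver 2 (limma adjusted p = 0.0641). Alas2 lost it without DDK liver 1 (limma adjusted p = 0.071), DDK liver 2 (limma adjusted p = 0.0773) or vehicle liver 2 (limma adjusted p = 0.0725), and under length correction and quantile normalization.

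Other erythroid genes went in both directions. Of 10 red blood cell and erythroid markers 6 were tested, 3 rose and 1, Alas2, fell. Of all tested genes 10.2% rose and 30.3% fell. The summed FPKM of the 10 markers was 372 to 729 in DDK and 394 to 532 in vehicle livers. The beta globin gene Hbb-bs went the way of Alas2 but did not pass (-0.63, limma adjusted p = 0.0516), and Hbb-bt stood at -0.10 (limma adjusted p = 0.732). Hba-a1 and Hba-a2, near-identical alpha globin genes whose fragments may have been split between them, rose by 0.87 and 0.74, and Klf1, an erythroid transcription factor, rose by 0.62. Both globin calls were lost after length correction, under TPM and without DDK liver 2 or vehicle liver 3, and that of Hba-a2 also without vehicle liver 2. Klf1 lost its call under TPM and without DDK liver 1 or DDK liver 3, and with every gene above 0 tested none of the 3 passed. The part of blood cells in the level of Alas2 was not tested.

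Genes of mitochondrial iron and iron-sulfur clusters had calls in both directions. The shares were not far from those of all tested genes (10.2% higher and 30.3% lower). Of 25 listed genes 24 were tested, 3 rose and 5 fell, with a median of -0.17 against -0.23 for all genes. The counts were 6 higher and 1 lower under median-ratio scaling, and 3 higher and 12 lower under TPM. The number that fell was 1 without DDK liver 2, 2 without vehicle liver 2 or vehicle liver 3, 3 without DDK liver 1 and 8 without vehicle liver 1, and the number that rose was 5 without vehicle liver 1. Hscb, a cochaperone of cluster transfer, stood at 11.8 ± 1.89 in DDK and 5.26 ± 0.512 in vehicle livers (SD, n = 3 each) and rose by 1.03 (limma adjusted p = 0.00168). The electron carriers of cluster assembly, Fdx1 and Fdxr, rose by 0.62 and 0.79. Nfs1, the desulfurase that supplies the sulfur, stood at 24.1 ± 2.01 in DDK and 40.6 ± 5.28 in vehicle livers (SD, n = 3 each) and fell by 0.72 (limma adjusted p = 0.00425).

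**Figure D4:**
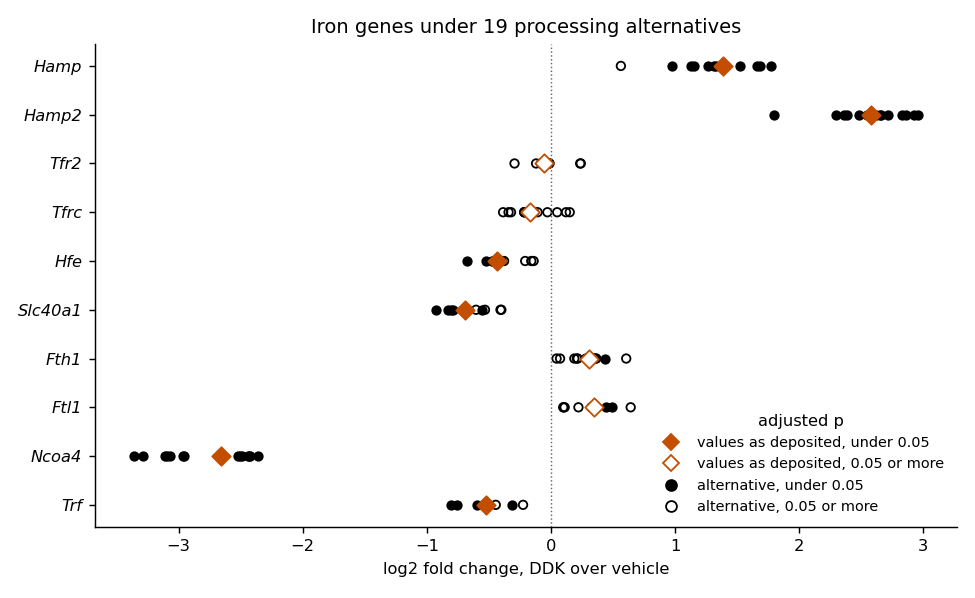
Log2 fold change of DDK over vehicle for the 10 iron genes with the values as deposited (diamonds) and under 19 processing alternatives (circles), filled where the adjusted p was under 0.05. Hamp2 and Ncoa4 keep filled symbols throughout, Hamp has 1 open circle at 0.56, and Hfe, Slc40a1 and Trf have several.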

How the data were processed

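The authors deposited FPKM values per gene symbol for each of 6 libraries, on GRCm38 (mm10) per the submitters' processing notes. Per the labels' protocols, total RNA of frozen liver went into NEBNext Ultra libraries. The aligner, the counter and the annotation are not given in the sources used here. Whole gene lengths and library totals were recovered from the FPKM steps, for which 99.96% of values of tested genes were whole fragments within 0.01. The test was limma (3.58.1, R 4.3.3) with a mean-variance trend on log2(FPKM + 1), for genes that reached an FPKM of 0.5 in 3 or more libraries, and fold changes of low genes are understated on that scale. Ratios were tested by exact permutation (scipy 1.17.1). The 10 genes and the lists were chosen with earlier results of these data known. Named genes were the 10, the 4 with the smallest p in each list and 15 fixed regulators, and others complete a count. Alternatives were 2 other pseudocounts, 2 filters, 3 scalings, length correction (lowess, span 0.3), a replicate block, 3 variance models, voom on recovered fragments and each library left out.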

Additional observations from a re-analysis of the deposited data

How the results depend on the processing

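Of the 10 iron genes, 2 rose and 4 fell with the values as deposited. After length correction 1 rose and 2 fell, and under median-ratio scaling 1 fell. Leaving out each library in turn gave 2 to 4 higher and 1 to 4 lower, with 4 higher without vehicle replicate 1, 2 lower without DDK replicate 1, and 1 lower without DDK replicate 2 or vehicle replicate 3. Over all genes 1093 rose and 3234 fell. These counts became 1722 and 1841 after length correction, 1886 and 1743 after quantile normalization, 1924 and 1727 with median-ratio factors, and 631 and 4929 under TPM, and 610 to 1356 and 1738 to 4330 with a library left out. The log2 ratio of Hamp2 to Hamp differed by 0.77 to 1.63 with a library left out. The difference in the log2 ratio of Ftl1 to Fth1 was -0.089 after quantile normalization and -0.009 to 0.12 with a library left out. Over the 61 genes chosen by the naming rule, 79 of 1159 combinations of gene and alternative lost a call, 15 gained one and 0 reversed a called direction. Deviations of same-numbered livers of the groups correlated at 0.141, -0.146 and 0.056, within the -0.207 to 0.208 of differently numbered livers. The numbers were therefore not taken as pairs. With the replicate block 2 iron genes rose and 4 fell, with 1052 genes higher and 3082 lower in all.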

Other observations

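Among 3723 tested genes with a mean FPKM of at least 10, the 5 whose log2 levels were most like those of Hamp over the 6 libraries were Asgr2, Ifnar2, Blvrb, Bud23 and Ube2a, with a Pearson r of 0.991 to 0.994. Of these, Blvrb, biliverdin reductase B (0.94), Bud23 (0.72) and Ube2a (0.39) passed limma's test, while Asgr2 (0.17) and Ifnar2 (0.32) did not. Ube2a lost its call under 10 of 19 alternatives, which include each fit without 1 library other than vehicle liver 1. Ifnar2 passed under 5 of 19. These were length correction (0.61), median-ratio scaling (0.60), quantile normalization (0.55), library weights (0.39) and the fit without vehicle liver 1 (0.41). Asgr2 passed under median-ratio scaling (0.46). The 5 most like Slc40a1 were Rnf115, Prxl2c, Ube2z, Ptges2 and Dgcr2, with r of 0.990 to 0.997. An r of at least 0.95 was reached by 149 genes for Hamp and 240 for Slc40a1, and the 6 points of each share their 2 groups and library depths, so these are descriptions of the pattern over livers.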
